A study of Mus musculus with 30 samples.

Results

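A group of 7 long noncoding RNAs, most of them known as nuclear transcripts, and Cdr1, the gene opposite a circular RNA, were followed in the mouse cervical spinal cord after a cortical stroke. They were found by gene symbol (Malat1, Neat1, Miat, Meg3, Rian, Mirg, Snhg11 and Cdr1), and these 8 genes were all present among the 16995 genes of the expression table. The set was selected on earlier results from the same expression values, so the levels below are descriptions, and a place in the fit across all genes is not independent evidence for any of them.

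All animals were adult female mice, C57BL/6 in the labels and C57BL/6J in the study's methods. The stroke groups received a photothrombotic lesion of the right sensorimotor cortex, with Rose Bengal and illumination through the skull, and were examined 4 to 42 days post injury (dpi), in groups of 4, 7, 14, 28 and 42 days. The sham group, called Ctrl in the labels, had the operation without illumination. The intermediate layer of segments C5/C6 on the side that had lost its corticospinal input was trimmed out with blades, so each value is a bulk value of mixed cells, and fewer cells of a type cannot be told apart from less RNA per cell. There were 5 animals per group, apart from 4 dpi, where 4 of 5 labelled animals had a column; each library was 1 animal, named here by its label number. Values are normalized CPM, read counts scaled to library size, as deposited.

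Malat1 and Neat1 are neighbours that build or decorate nuclear bodies: Malat1 gathers in nuclear speckles with splicing factors, and Neat1 is the scaffold of paraspeckles. Miat, also named Gomafu, is a nuclear RNA of neurons that binds splicing factors. Meg3, Rian and Mirg lie in a row in the imprinted Dlk1-Dio3 locus, where they are expressed from the maternal chromosome, and Rian and Mirg host snoRNAs and microRNAs. Snhg11 is a snoRNA host gene of neurons. Cdr1 lies opposite Cdr1as, a brain-rich circular RNA known for its many binding sites for the microRNA miR-7.

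On the mm10 build, Malat1 lay at chr19:5795690-5802672 and Neat1 at chr19:5824708-5845478, both on the minus strand with 22035 bases between them. Meg3 was placed at chr12:109541001-109571726, Rian at chr12:109603940-109661716 and Mirg at chr12:109729764-109749460, all on the plus strand and together spanning 208460 bases. Miat lay at chr5:112213228-112229395 on the minus strand, and Snhg11 at chr2:158375638-158386145 on the plus strand. The annotation used here (GENCODE M21, the same build) types Snhg11 as protein coding although it is best known as a noncoding host gene. Cdr1 lay at chrX:61183246-61185558 on the minus strand in the deposited table. GENCODE M21 gives it a shorter span, chrX:61184005-61185558, of 1554 bases, and types it as protein coding.

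The sequence of Cdr1 shows why its value needs care. The strand opposite to Cdr1 held 79 matches to GTCTTCC, the 7 letters that pair with the seed (bases 2 to 8) of miR-7, and the Cdr1 strand itself held 0. Of the 78 spacings between neighbouring matches, 72 were 18 bases long. The mature miR-7 sequences (RefSeq, GRCm38.p6) are shown with the seed in capitals, and below them the most common repeat unit, which occurred 20 times among 78 units, and 5 successive units at chrX:61184774-61184863, both on the plus strand with the seed match in capitals.
miR-7a-5p: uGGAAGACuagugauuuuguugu
miR-7b-5p: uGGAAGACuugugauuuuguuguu
most common unit: cgaaaatccaaGTCTTCC
5 successive units: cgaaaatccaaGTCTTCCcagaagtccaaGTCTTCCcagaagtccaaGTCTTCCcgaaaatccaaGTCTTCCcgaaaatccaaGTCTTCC
The other members held between 0 and 5 matches on either strand of their longest transcript. Among all 16919 genes with a transcript in the annotation, 50.6% held a match on either strand, and among the 2780 genes with a longest transcript of 1000 to 2000 bases the share was 30.7%. A match is only a run of letters and no binding was measured. The highest number apart from Cdr1 was 125, in C230004F18Rik, the gene on the opposite strand (also called Cdr1os). In GENCODE M21 all of the distinct 31-base words of Cdr1 (100%) also occur in C230004F18Rik. The library kit does not mark strand, so reads of Cdr1 and of an RNA from the opposite strand cannot be told apart, and no value of the circular RNA is given here.

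In the RefSeq microRNA table Mirg holds 14 hairpins with 26 mature microRNAs, Rian holds 3 hairpins and Meg3 holds 1. GENCODE M21 places 13 snoRNA genes inside Rian, and some further microRNA genes inside Rian and Meg3. A few of the mature microRNAs inside Mirg are printed because Mirg is known as their host; the mature microRNAs themselves were not measured here. The seed is in capitals.
miR-134-5p: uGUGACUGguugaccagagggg
miR-410-3p: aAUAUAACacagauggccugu
miR-453: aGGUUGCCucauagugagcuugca
miR-496a-5p: aGGUUGCCcaugguguguuca
The last pair, miR-453 and miR-496a-5p, share the seed GGUUGCC, and no other pair of the 26 shares a seed. Sequence shared with other genes was small for Rian (2.80% of 31-base words), Mirg (2.81%), Neat1 (2.20%), Malat1 (6.81%) and Snhg11 (6.87%). It was larger for Meg3 (11.4%), of which Gm26906 on the opposite strand held 6.42%, and for Miat (26.9%), of which Gm26953 on the opposite strand held 21.4%. Of the Malat1 words, Gm37376 on the opposite strand held 6.02%. Part of the Malat1, Meg3 and Miat values could therefore belong to those genes.

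Levels differed widely among the members. Per kilobase of exon, the mean normalized CPM over all 29 animals was 836 for Malat1, 53.4 for Meg3, 51.1 for Cdr1, 37.2 for Snhg11, 13.8 for Miat, 11.3 for Rian, 9.77 for Neat1 and 7.10 for Mirg. The Cdr1 figure divides by the 1554 bases of GENCODE M21, while its deposited row spans 2313 bases. A longer length would lower it, so its place in this order is not settled. Without division by length, the mean of Malat1 (5839) was above that of 99.9% of genes, and the lowest mean, that of Mirg (51.8), was above 84.0%.

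Depth is unknown because the table holds no counts. Ribosomal RNA took a varying part of it: the 7 rows that read ribosomal RNA held 14.2% to 18.4% of an animal's summed value in the sham group and up to 65.9% at 28 dpi. Rn18s-rs5, the 18S ribosomal RNA row, ranged from 30321 to 52929 in sham animals. It ranged from 32754 to 817780 at 14 dpi, from 44755 to 779160 in the 28 dpi group, and from 78737 to 457302 in the 42 dpi group. Neuronal markers (7 of 7 measured, none at 0) summed to 2793 to 3934 in sham animals and 2714 to 3360 at 28 dpi. Oligodendrocyte markers (5 of 5, none at 0) summed to 5949 to 8890 and 4251 to 6305. The 4 Hox markers of spinal level were present in every group, with sums of 56.4 to 102, which marks spinal cord but does not place it at C5/C6 or in the intermediate layer. At 4 dpi the microglial marker Csf1r (log2 fold change 0.74) and the astrocyte marker Gfap (1.18) were called higher. At 28 dpi, where 24.9% of all genes had an adjusted p under 0.05, 4 of the 5 oligodendrocyte markers did, with lower means (median -0.42). An adjusted p under 0.05 was also found for 3 of 5 astrocyte markers in mixed directions, 1 of 6 microglial markers (Cx3cr1, 0.34), 1 of 7 neuronal markers (Snap25, -0.30) and 1 of 4 endothelial markers (Flt1, 0.36), none of them called. Also at 28 dpi 1 of 4 fibroblast markers (Col1a1, 0.61) and 1 of 3 blood markers (Alas2, 0.91) were called higher, while Hbb-bs (-0.19) and Hba-a1 (0.27) were not called. Of all genes 4.15% were called higher at 28 dpi. The 3 pituitary markers summed to 0.2 to 0.7 in sham animals and reached 28.0 at 7 dpi; their medians were positive in every stroke group (2.02 at 4 dpi and 1.69 at 7 dpi on the log2 scale) and none was called by limma. Relations of the members with neuronal and oligodendrocyte markers are given further on; the part of the other cell types in the results was not tested.

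**Figure D1:**
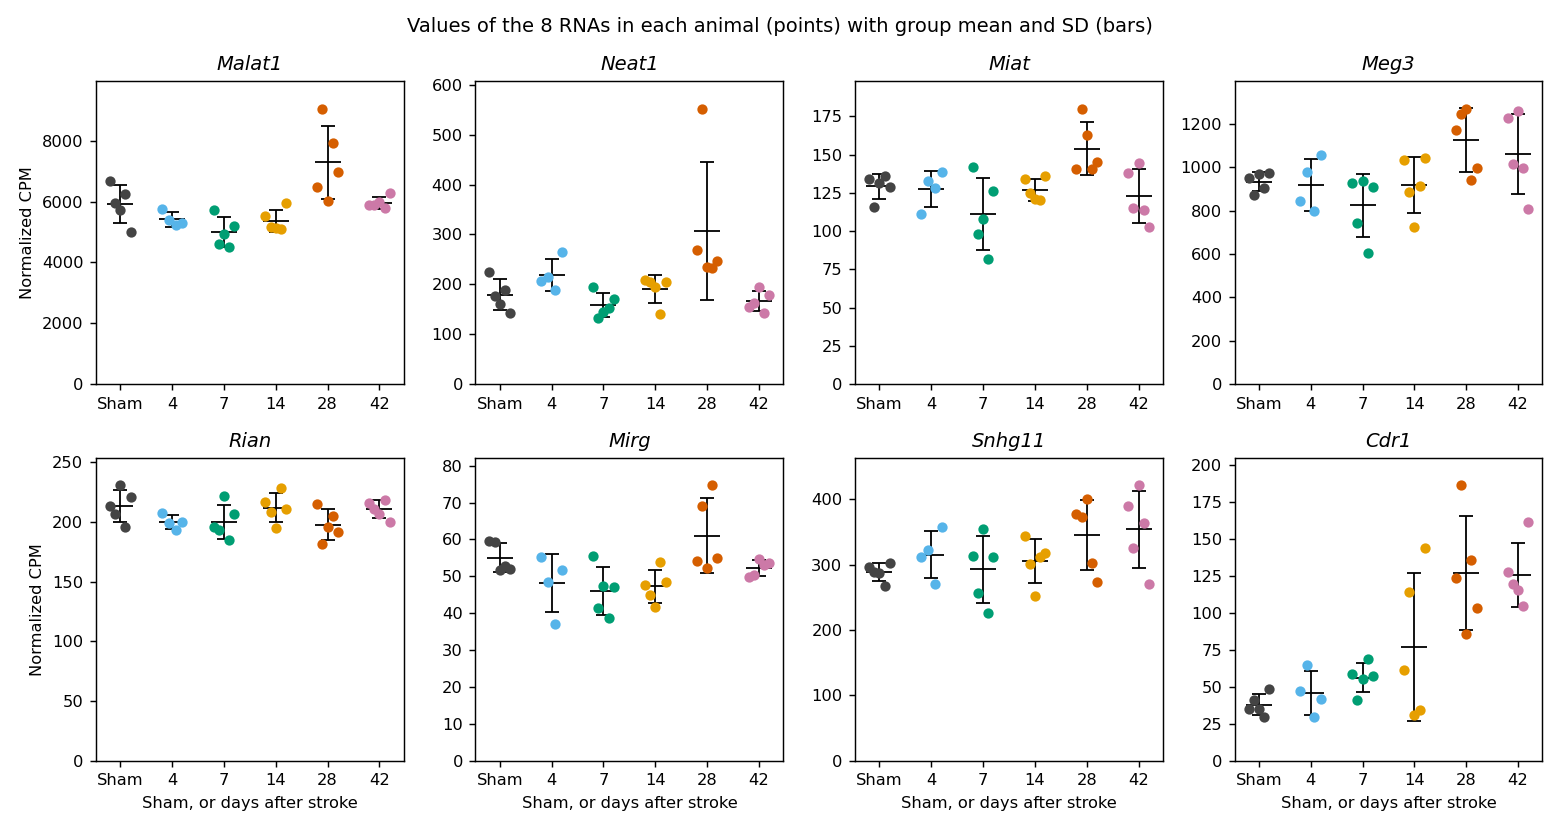
Normalized CPM (linear axes from 0) of the 8 RNAs by group, sham first and then days after stroke. Points are animals and bars the group mean with SD; the highest Malat1, Neat1 and Miat values sit at 28 dpi, and all Cdr1 values at 28 and 42 dpi lie above the sham range of 29.8 to 48.4.

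Cdr1 was the member with the largest difference from sham. It read 35.2, 40.9, 34.9, 29.8 and 48.4 in the sham animals. At 28 dpi it read 123.6, 186.5, 85.8, 135.8 and 103.2, and at 42 dpi 127.5, 119.7, 115.7, 104.7 and 161.4. Every animal of both late groups was above every sham animal. The log2 fold change was 1.70 (SE 0.29) at 28 dpi, a fold of 3.26 (limma adjusted p = 0.00133). At 42 dpi it was 1.72 (SE 0.29), a fold of 3.30 (limma adjusted p = 0.00699). Without the sham animal A12-2, the lowest of its group, it was 1.64 (limma adjusted p = 0.0577), no longer called.

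Before 28 dpi the groups were mixed. At 14 dpi Cdr1 read 61.4, 114.4, 30.8, 34.6 and 143.9, so 3 of 5 animals were above the sham range and the other two inside it. At 7 dpi it read 58.8, 41, 55.6, 68.8 and 57.1, with 4 of 5 animals above that range. At 4 dpi it read 47.3, 64.7, 29.4 and 42.0, which overlapped the sham values. The log2 fold changes at 4, 7 and 14 dpi were 0.24, 0.57 and 0.77, none of them called (limma adjusted p = 1.00, 0.856 and 0.392), where called means adjusted p under 0.05 and a fold above 1.5. In the order of group means, the 28 dpi group came first with 127, followed by 126 (42 dpi), 77.0 (14 dpi), 56.3 (7 dpi), 45.9 (4 dpi) and 37.8 (sham). Each neighbour differed from the next by less than the larger SD of the pair; the step from 42 to 14 dpi was 48.8, beside an SD of 50.1.

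Ribosomal RNA moved with Cdr1 over the animals, though not in every group. At 14 dpi the order of the animals was the same for both rows: Cdr1 was 143.9, 114.4, 61.4, 34.6 and 30.8 where Rn18s-rs5 was 817780, 419050, 95114, 40691 and 32754. At 28 dpi the highest and the lowest animal were the same for both, with the others in another order. In sham animals the orders did not match: the highest Cdr1 value, 48.4, came with the second lowest Rn18s-rs5 value, 34313, and the highest Rn18s-rs5 value, 52929, with a Cdr1 value of 34.9. With group means subtracted, Pearson's r over the 29 animals was 0.85 (permutation p = 3e-05, adjusted p = 0.00072 over 24 relations) and Spearman's rho 0.73 (permutation p = 0.00017, adjusted p = 0.00252). Without the 2 animals farthest from the median of Rn18s-rs5, r was 0.78. The 3 genes most like Cdr1 over all animals were Mir6240 (r = 0.95), Lars2 (r = 0.92) and Gm15662 (r = 0.92), the first 2 of them listed here as readouts of ribosomal RNA, given as descriptions over 29 animals that share group and library.

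The lowest Rn18s-rs5 values of the late groups were in A4-1 and A1-3. The 28 dpi animal A4-1 read 85.8 for Cdr1 while its Rn18s-rs5 value, 44755, lay inside the sham range. The 42 dpi animal A1-3 read 115.7 with a Rn18s-rs5 value of 78737. With log2 of Rn18s-rs5 as a covariate the Cdr1 log2 fold change was 0.72 (SE 0.19, limma adjusted p = 0.0596) at 28 dpi and 0.89 (SE 0.18, limma adjusted p = 0.0550) at 42 dpi, neither called. Among the 17 animals with Rn18s-rs5 under 100000, a limit chosen after the data were seen that left 1 animal in each late group, it was 1.19 (limma adjusted p = 0.112) and 1.62 (limma adjusted p = 0.0737); a lone animal was there assumed to vary like the other groups. Since ribosomal RNA itself differed between groups, its part in the Cdr1 difference and that of the time point cannot be told apart.

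**Figure D2:**
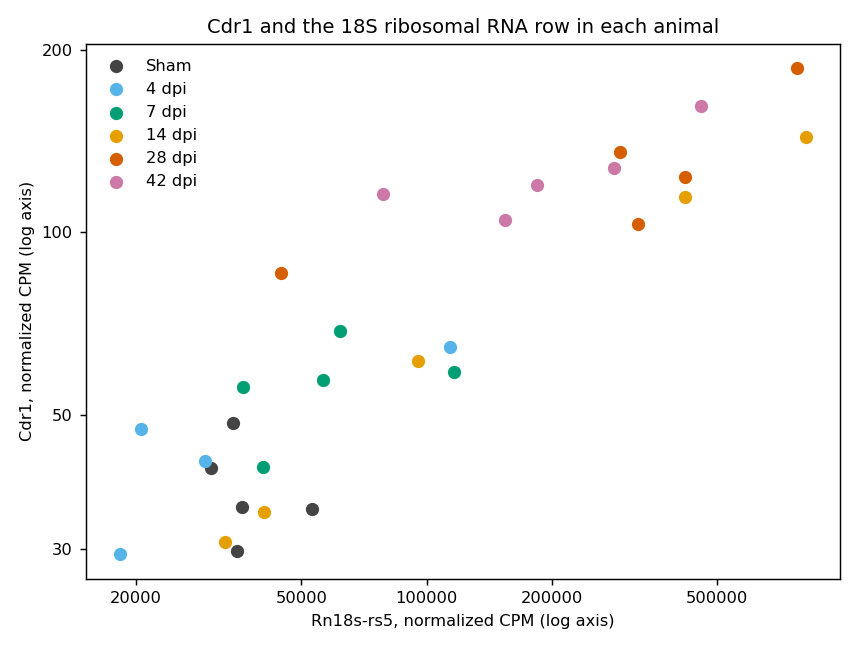
Cdr1 against Rn18s-rs5 in each of the 29 animals (both log axes, normalized CPM), coloured by group. The highest values of both rows fall in the 14, 28 and 42 dpi groups, the sham animals do not share an order, and the 28 dpi animal at 44755 for Rn18s-rs5 still reads 85.8 for Cdr1, above the sham range.

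The row of C230004F18Rik, the opposite-strand gene of Cdr1, did not pass the limits. C230004F18Rik averaged 14.1 in sham, 18.9 at 28 dpi and 18.1 at 42 dpi, with log2 fold changes of 0.42 (limma adjusted p = 0.0243, fold under the limit) and 0.36 (limma adjusted p = 0.210). In the deposited table C230004F18Rik ends before Cdr1 begins, so the 2 rows do not overlap there. The C230004F18Rik row therefore gives no separate value for an RNA opposite Cdr1 itself.

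Neat1, the paraspeckle scaffold, was the other member called. It read 225.7, 176.8, 160.5, 188.6 and 143.3 in sham animals and 269.3, 552.1, 233.9, 232.4 and 245.8 at 28 dpi. The 28 dpi animals all exceeded the sham range, and animal A3-3, with 552.1, stood far above the other 28 dpi animals; the same animal had the highest Rn18s-rs5 value of its group, 779160. The log2 fold change was 0.70 (SE 0.17), a fold of 1.63 (limma adjusted p = 0.00456). Without animal A3-3 it was 0.47 (SE 0.13, limma adjusted p = 0.0176), under the fold limit and so no longer called. With Rn18s-rs5 as a covariate it was 0.43 (limma adjusted p = 0.196).

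At 42 dpi Neat1 read 154.0, 162.4, 193.8, 143.2 and 177.7, all below every 28 dpi animal and within or near the sham range. The difference between 42 and 28 dpi was called: it fell by 0.80 on the log2 scale (SE 0.17, limma adjusted p = 0.0248), and by 0.57 (limma adjusted p = 0.0867) without A3-3. The call was also lost without the 42 dpi animal A1-1 (limma adjusted p = 0.0623), A1-2 (limma adjusted p = 0.0515) or A1-4 (limma adjusted p = 0.0570), where it fell by 0.78, 0.79 and 0.75. The 4 dpi values were 206.5, 214.0, 189.4 and 265.4, with 1 animal above the sham range. The 7 dpi values ran from 132.7 to 193.9 and the 14 dpi values from 139.9 to 208.8. Neat1 group means ran from 159 at 7 dpi to 307 at 28 dpi, and neighbours in the order differed by less than the larger SD throughout. The SD at 28 dpi, which includes A3-3, was 138.

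Malat1, the speckle RNA next to Neat1, was also highest at 28 dpi. It read 6672, 5965, 5725, 6234 and 4987 in sham animals and 6484, 9057, 6028, 7916 and 6963 at 28 dpi, where 3 of 5 animals exceeded the sham range and A3-3 was again the highest. The log2 fold change of Malat1 was 0.29 (SE 0.11, limma adjusted p = 0.0479), a fold of 1.22 that is under the fold limit. Its limma adjusted p was 0.179 without A3-3. It was also above 0.05 without A4-3 or A4-4 of that group, or without the sham animal A11-4, A12-1, A12-2 or A12-3 (0.056 to 0.146). With Rn18s-rs5 as a covariate the log2 fold change of Malat1 was 0.14 (limma adjusted p = 0.455). Its mean of 7289 at 28 dpi stood 1325 above the next, 5964 at 42 dpi, which was more than the larger SD of 1211. The 42 dpi animals were close together, between 5781 and 6283, and inside the sham range. At 7 dpi Malat1 read between 4501 and 5733, and 3 of 5 animals were below every sham animal (log2 fold change -0.24, limma adjusted p = 0.840). Under quantile normalization the 28 dpi value was -0.42.

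Miat read 134.2, 115.6, 131.3, 135.8 and 128.9 in sham animals and 140.5, 180.0, 162.9, 140.4 and 144.9 at 28 dpi. The groups did not overlap, but the log2 fold change of 0.25 (SE 0.11) was small and not called (limma adjusted p = 0.0864). Its mean of 154 at 28 dpi exceeded the next, 129 in sham, by 24.6, more than the larger SD of 17.4. At 7 dpi Miat was spread from 81.7 to 142.1, with 3 of 5 animals below the sham range and 1 above it, and at 42 dpi from 102.8 to 144.3, with 3 below and 2 above.

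Of the 3 members of the imprinted Dlk1-Dio3 cluster, Meg3 and Mirg had their lowest mean at 7 dpi and their highest at 28 dpi, and none was called against sham. Meg3, the start of the cluster, read 949.3, 875.2, 968.6, 907.0 and 973.6 in sham animals and 1174, 1248, 1272, 941.5 and 998.3 at 28 dpi, where 4 of 5 animals exceeded every sham animal. The Meg3 log2 fold change was 0.26 (SE 0.12, limma adjusted p = 0.121) at 28 dpi and 0.17 (SE 0.12, limma adjusted p = 0.565) at 42 dpi, where it read 1231, 1016, 1259, 999.4 and 809.5. The sham animals were tight, with an SD of 42.4, while the stroke groups had SDs of 121 to 185.

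Rian, the snoRNA host, stayed close to its sham level throughout, with group means between 198 and 214. It read 213.1, 206.8, 230.7, 196.0 and 221.0 in sham animals and 215.1, 181.8, 195.9, 204.8 and 191.3 at 28 dpi, where 3 of 5 animals were below the sham range. The log2 fold change of Rian at 28 dpi was -0.11 (SE 0.06, limma adjusted p = 0.146).

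Mirg, the microRNA host at the end of the cluster, read 59.5, 59.2, 51.8, 52.7 and 51.9 in sham animals. At 7 dpi it read 55.4, 41.3, 47.4, 38.8 and 47.1 and at 14 dpi 47.7, 44.9, 41.8, 53.9 and 48.4, so 4 of 5 animals of each group were below the sham range. The log2 fold changes were -0.26 (SE 0.10, limma adjusted p = 0.791) and -0.22 (SE 0.10, limma adjusted p = 0.415). At 28 dpi Mirg read 54.1, 69.1, 52.2, 74.7 and 55, with 2 animals above the sham range and a log2 difference of 0.14 (limma adjusted p = 0.334).

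Snhg11 read 296.4, 287.9, 286.8, 267.2 and 302.9 in sham animals. At 42 dpi it read 388.9, 325.1, 421.2, 363.1 and 270.2, 4 of them above all sham animals, and at 28 dpi 376.7, 371.9, 400.0, 301.8 and 274.0, 3 of them above. The log2 fold changes were 0.28 (SE 0.12, limma adjusted p = 0.255) and 0.24 (SE 0.12, limma adjusted p = 0.121), neither called. Like Meg3, Snhg11 was tight in sham animals (SD 13.5) and spread in the stroke groups (SD 33.4 to 58.5).

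**Figure D3:**
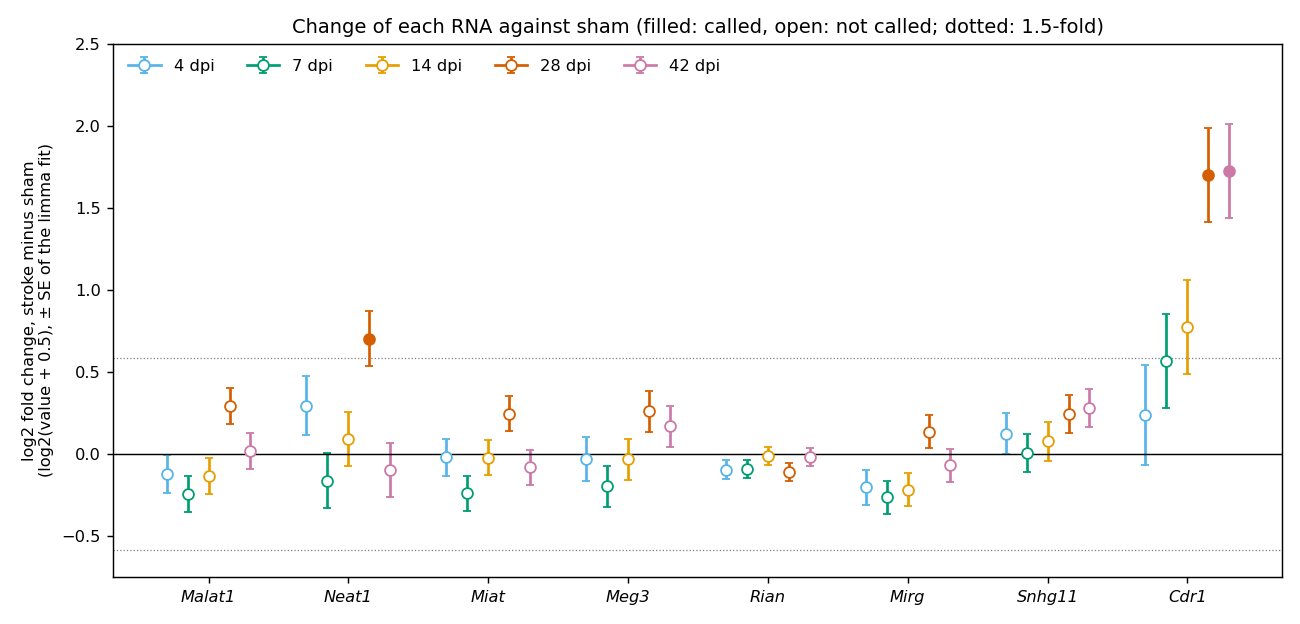
Log2 fold change of each RNA against sham on the log2(value + 0.5) scale, with the SE of the limma fit, at the 5 time points. Filled points are called; these are Neat1 at 28 dpi and Cdr1 at 28 and 42 dpi, and every other member lies inside the 1.5-fold lines at 4, 7 and 14 dpi except Cdr1 at 14 dpi.

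Counted together, limma called 0 of the 8 members against sham at 4, 7 and 14 dpi, 2 in the 28 dpi group and 1 in the 42 dpi group. Of all 16995 genes, 0.0941%, 0.0294% and 0.00588% were called in the 3 early groups, 4.64% in the 28 dpi group (4.15% higher and 0.488% lower) and 0.0235% in the 42 dpi group (0.0118% higher); nothing about the members is read from these shares, because they were chosen with these contrasts known. At an unadjusted p under 0.05 the members numbered 0 at 4 dpi, 3 at 7 dpi (Malat1, Miat and Mirg, all with lower means) and 2 at 14 dpi (Mirg and Cdr1), where the share of all genes was 5.14%, 5.84% and 11.6%. They numbered 6 at 28 dpi and 2 at 42 dpi (Snhg11 and Cdr1), beside 38.5% and 14.8% of all genes. All 5 animals were above the sham range for 3 members at 28 dpi (Neat1, Miat and Cdr1), as for 6.15% of all genes, and for 1 member at 42 dpi (Cdr1), as for 2.21%.

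The median log2 fold change of the 8 members was -0.03, -0.18, -0.02, 0.25 and 0.00 in the 5 stroke groups by time, beside medians of 0.01, 0.00, -0.01, -0.01 and -0.01 over all genes. The sign of the members' values at 28 dpi depends on the reference level. When each animal was rescaled to the same sum, ribosomal RNA included, the median of all genes was -0.73 at 28 dpi, -0.52 at 42 dpi and -0.48 at 14 dpi. On that scale the 6 members with a positive value at 28 dpi besides Cdr1, Malat1, Neat1, Miat, Meg3, Mirg and Snhg11, had negative log2 fold changes like most genes, and Cdr1 stayed positive (0.92 at 28 dpi and 1.17 at 42 dpi, both called). Measured from the shifted median, all of them were again positive at 28 dpi: Cdr1 by 1.64, Neat1 by 0.64, Malat1 by 0.23, Meg3 by 0.20, Miat and Snhg11 by 0.18 and Mirg by 0.08.

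**Figure D4:**
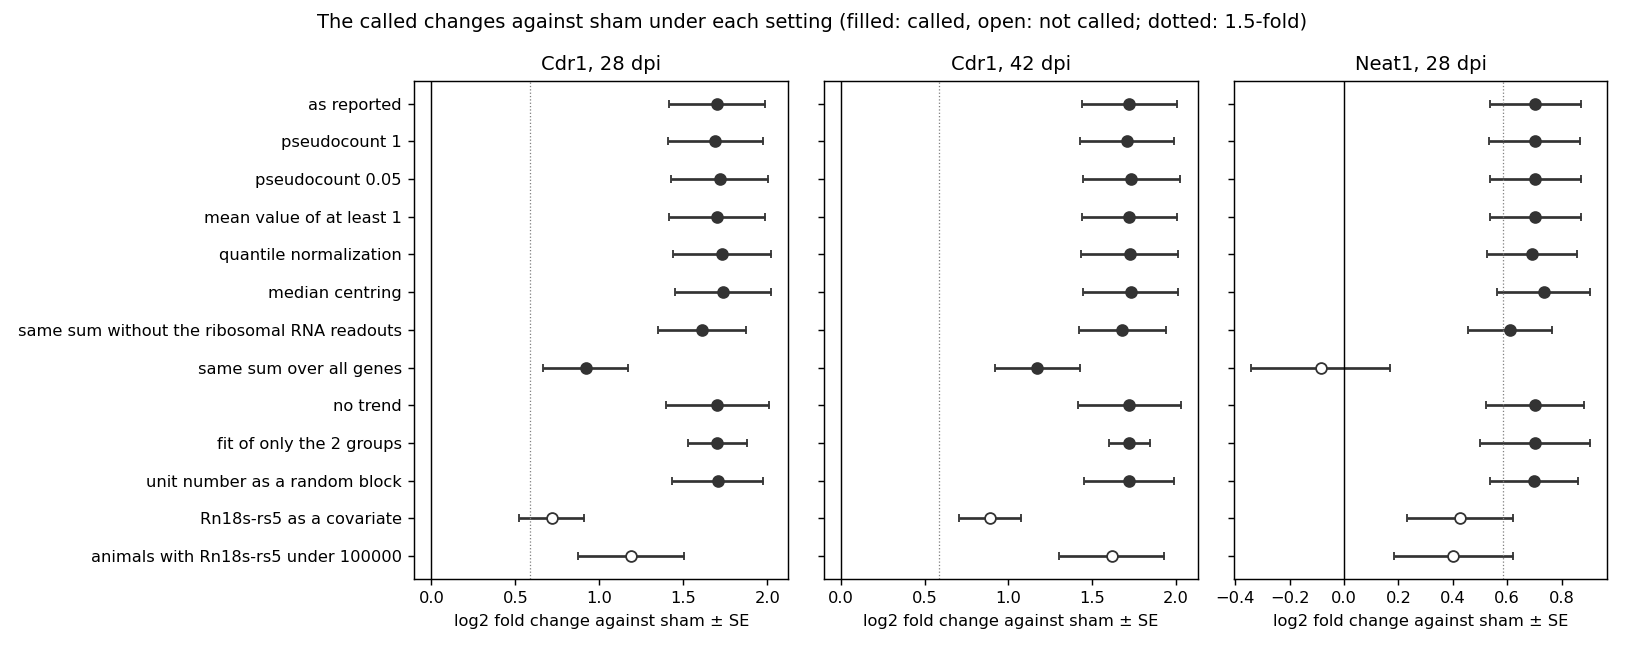
Log2 fold change with SE of the 3 called differences from sham under each processing setting; filled points are called. Cdr1 is positive under each setting and is not called with Rn18s-rs5 as a covariate or in animals under 100000 for Rn18s-rs5, and Neat1 is negative (-0.09) only when each animal is rescaled to the same sum over all genes.

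Between time points, 8 of the 80 member by pair differences were called. Cdr1 was higher at 28 dpi than at 4 dpi (log2 difference 1.47, limma adjusted p = 0.00546), than at 7 dpi (1.14, limma adjusted p = 0.00390) and than at 14 dpi (0.93, limma adjusted p = 0.00972). At 42 dpi it was higher than at 4 dpi (1.49, limma adjusted p = 0.0279) and than at 14 dpi (0.95, limma adjusted p = 0.0289). Neat1 was higher at 28 dpi than at 7 dpi (0.87, limma adjusted p = 0.00072) and than at 14 dpi (0.61, limma adjusted p = 0.00429), and lower at 42 than at 28 dpi, as given above. With Rn18s-rs5 as a covariate, Cdr1 was not called at 28 against 4 dpi (0.43, limma adjusted p = 0.284), at 28 against 7 dpi (0.36, limma adjusted p = 0.167) or at 42 against 4 dpi (0.60, limma adjusted p = 0.425), and it was still called against 14 dpi. The Cdr1 difference of 42 and 4 dpi was also lost without any of 6 animals, A1-1, A1-4, A3-4, A10-1, A10-4 or A9-4 (1.29 to 1.67, limma adjusted p = 0.056 to 0.133). That of 42 and 14 dpi was lost without A5-4 (0.69), A6-2 (0.73), A1-3 (0.98) or A3-4 (0.86), and that of 28 and 14 dpi without A5-4 (0.67, limma adjusted p = 0.0526). The Neat1 difference of 28 and 14 dpi fell under the fold limit without A3-3 (0.38) or A6-2 (0.50), with Rn18s-rs5 as a covariate (0.51) and with the same sum in each animal without the ribosomal RNA readouts (0.57). The share of all genes called was 4.34%, 7.27% and 11.8% for 28 dpi against 4, 7 and 14 dpi. It was 0.0941% and 2.06% for 42 dpi against 4 and 14 dpi, and 0.224% for 42 against 28 dpi. For 7 against 4, 14 against 7 and 42 against 7 dpi it was 0%, and for 14 against 4 dpi 0.0177%. These pairs share animals with each other and with the comparisons against sham.

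For 4 members that missed the fold limit the adjusted p was still under 0.05 between 7 and 28 dpi, the groups with their lowest and highest means. From 7 to 28 dpi the log2 difference was 0.54 for Malat1 (limma adjusted p = 0.00093), 0.46 for Meg3 (0.00675), 0.40 for Mirg (0.00436) and 0.49 for Miat (0.00160). This adjusted p was reached by 31.2% of all genes. All 5 animals at 28 dpi exceeded every 7 dpi animal for Malat1, Neat1, Meg3 and Cdr1, as for 5.25% of all genes. Rian and Snhg11 had no adjusted p under 0.05 in any comparison.

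Some members varied together from animal to animal inside the groups. How often pairs of other genes do so was not measured, so nothing particular to these RNAs is read from the count below. Of 28 pairs, 7 had an adjusted permutation p under 0.05 for Pearson's r, all positive, and 6 of these also for Spearman's rho. The strongest joined Meg3 on chromosome 12 with Snhg11 on chromosome 2: r = 0.93 (permutation p = 1e-05, the smallest that these permutations can give; adjusted p = 0.00014) and rho = 0.93 (adjusted p = 0.00028), with r = 0.91 without the 2 farthest animals. Animals low in Meg3 were low in Snhg11, such as the 7 dpi animal A8-1 with 604.6 and 226.5, and animals high in Meg3 were high in Snhg11, such as the 42 dpi animal A1-3 with 1259 and 421.2.

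Miat went with the same pair. Its r was 0.81 with Meg3 (permutation p = 1e-05, adjusted p = 0.00014; rho 0.82, adjusted p = 0.00028; 0.74 without the farthest 2) and 0.65 with Snhg11 (permutation p = 0.00272, adjusted p = 0.0152; rho 0.66, adjusted p = 0.00941; 0.55 without the farthest 2). Snhg11 and Rian had r = 0.52 (permutation p = 0.00973, adjusted p = 0.0389) but rho of 0.44 with adjusted p = 0.128.

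Malat1 and Neat1, neighbours on chromosome 19, had r = 0.71 (permutation p = 0.00041, adjusted p = 0.00287; rho 0.62, adjusted p = 0.00686; 0.66 without the farthest 2). Malat1 also went with Mirg, r = 0.69 (permutation p = 0.00027, adjusted p = 0.00252; rho 0.75, adjusted p = 0.0014; 0.58 without the farthest 2), and Neat1 with Miat, r = 0.49 (permutation p = 0.00422, adjusted p = 0.0197; rho 0.50, adjusted p = 0.0384; 0.38 without the farthest 2).

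The neighbours of the Dlk1-Dio3 cluster were less alike. Meg3 and Rian, 32213 bases apart, had r = 0.41 (permutation p = 0.0454, adjusted p = 0.114; rho 0.33). Meg3 and Mirg had r = 0.28 (adjusted permutation p = 0.312; rho 0.29), and Rian and Mirg, 68047 bases apart, r = 0.22 (adjusted permutation p = 0.443; rho 0.23). That these r values are lower than that of Meg3 and Snhg11 was not tested. Cdr1 had no pair past the threshold; its largest r was 0.40 with Neat1 (permutation p = 0.0394, adjusted p = 0.114; rho 0.34).

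**Figure D5:**
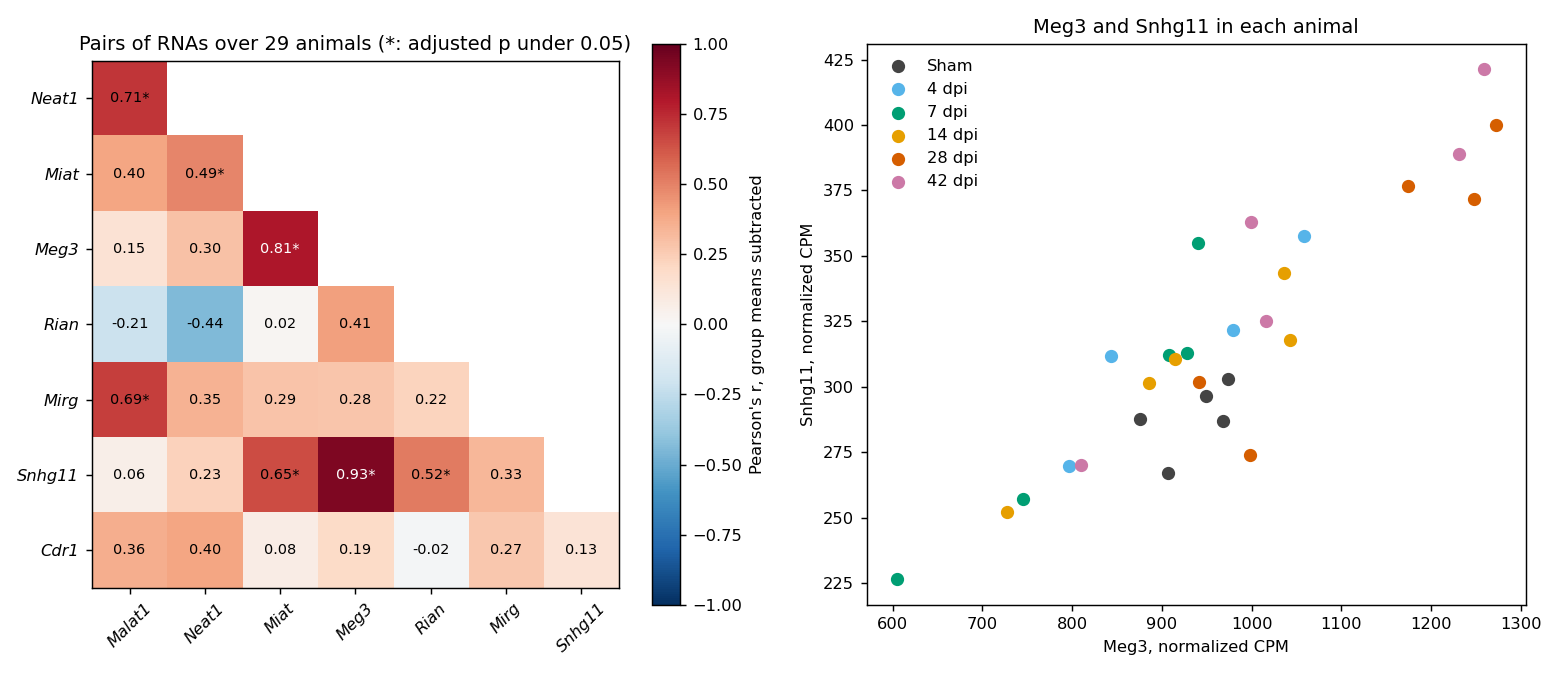
Left, Pearson's r between each pair of the RNAs over 29 animals after group means were subtracted from log2 values, with a star where the adjusted permutation p is under 0.05. Right, Meg3 against Snhg11 in normalized CPM (linear axes that do not start at 0), where the animals of every group fall along 1 band, from 604.6 and 226.5 up to 1259 and 421.2.

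Relations with tissue markers were tested as 24 relations, of which 3 passed. The share that passes for other genes was not measured. Besides Cdr1 with Rn18s-rs5, Mirg went against the mean of the 7 neuronal markers, r = -0.70 (permutation p = 0.00015, adjusted p = 0.0018; rho -0.71, adjusted p = 0.00252; -0.70 without the farthest 2), and against the mean of the 5 oligodendrocyte markers, r = -0.65 (permutation p = 0.00259, adjusted p = 0.0207; rho -0.62, adjusted p = 0.0333; -0.62 without the farthest 2). Among the other members the r with neuronal markers ran from -0.46 (Malat1, adjusted permutation p = 0.115; rho -0.51) to -0.04 (Rian, adjusted permutation p = 0.890; rho -0.09). The part of tissue makeup in the Mirg values was not tested beyond these relations.

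Over all 29 animals the genes most like each member were given by Pearson's r of the log2 values, as a description, since these animals share groups and libraries. Malat1 was most like Baz2b (0.90), Kalrn (0.90) and Ryr3 (0.89), and Mirg was most like Snhg14 (0.88), another imprinted noncoding RNA, Nav3 (0.86) and Dtnb (0.86). Neat1 was most like Gm3764 (0.86), Galnt5 (0.84) and C030029H02Rik (0.84), and Gm3764 was also among the 3 most like Miat (0.85), beside Col4a2 (0.88) and Gigyf1 (0.82). Meg3 was most like Coro6 (0.86), Arntl2 (0.85) and Gm43951 (0.85), and Coro6 was also among the 3 most like Snhg11 (0.82), with Gm29669 (0.82) and Pkib (0.81). Rian was most like Scg2 (0.77), Cstf2 (0.76) and Pcsk1 (0.72).

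The other genes of the Dlk1-Dio3 locus were measured in 8 of 10 cases. At 28 dpi 1 of the 8 was called, with higher values: B830012L14Rik, a noncoding RNA of the locus, with means of 5.14 in sham and 8.62 at 28 dpi (log2 fold change 0.70, SE 0.16, limma adjusted p = 0.00431). Dlk1 and Rtl1, which are expressed from the paternal chromosome, had log2 fold changes of 0.50 (limma adjusted p = 0.0219) and 0.40 (limma adjusted p = 0.0138), under the fold limit. The median of the 8 was 0.23 beside -0.01 over all genes, and 0 of 8 were called at any other time point by limma. Of all genes 4.64% were called at 28 dpi.

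Paraspeckle proteins, the partners of Neat1, were measured in 12 of 12 cases. The median of the 12 at 28 dpi was -0.11, 3 of 12 had a positive value, and 4 had an adjusted p under 0.05, as had 24.9% of all genes. Sfpq, a core paraspeckle protein, averaged 59.2 in sham and 55.9 at 28 dpi (log2 difference -0.08, SE 0.07, limma adjusted p = 0.436) and was not called.

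Among 11 nuclear speckle proteins and splicing factors that bind Miat, Srrm2, a core speckle protein, was called higher at 28 dpi, with means of 237 in sham and 366 (log2 fold change 0.64, SE 0.11, limma adjusted p = 0.00139). The median at 28 dpi was -0.03, with 5 positive values. An adjusted p under 0.05 in either direction was found for 8 of 11, beside 24.9% of all genes.

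Among 10 genes around miR-7 and Cdr1as, 1 was called at 28 dpi: Fos, an immediate early gene, fell by 0.66 on the log2 scale (SE 0.24, limma adjusted p = 0.0406), with means of 10.2 in sham and 6.20. Ago2, the Argonaute protein that carries microRNAs, averaged 73.3 in sham and 104 at 28 dpi (log2 difference 0.50, SE 0.12, limma adjusted p = 0.00404), under the fold limit. The median of the 10 was -0.03, and 4.64% of all genes were called at 28 dpi.

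Of 19 other long noncoding RNAs measured, 3 were called higher and 1 lower at 28 dpi, beside 4.15% and 0.488% of all genes. Xist, which coats the inactive X chromosome, averaged 122 in sham and 197 at 28 dpi (log2 fold change 0.68, SE 0.15, limma adjusted p = 0.00342). Kcnq1ot1, an imprinted nuclear RNA, averaged 302 and 474 (0.64, SE 0.13, limma adjusted p = 0.00187). Jpx, an activator of Xist, averaged 2.82 and 4.58 (0.60, SE 0.16, limma adjusted p = 0.0101). Epb41l4aos averaged 1.12 and 0.52 and fell by 0.73 on the log2 scale (SE 0.22, limma adjusted p = 0.0184). The median of the 19 was 0.13. Of the 10 other Snhg genes, 0 were called by limma at 28 dpi and 2 had a positive value, with a median of -0.26 where Snhg11 was at 0.24. Under the rescaling to the same sum over all genes, directions at 28 dpi shift with the median of all genes given above. None of these lists had a called gene in the other stroke groups by limma.

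The ribosomal RNA readouts were called higher in 5 of 7 cases at 28 dpi and in 1 of 7 at 42 dpi, beside 4.15% and 0.0118% of all genes. Mir6240 was called at both, with means of 3.34 in sham, 27.2 at 28 dpi (log2 fold change 2.56, SE 0.47, limma adjusted p = 0.00139) and 23.0 at 42 dpi (2.54, SE 0.47, limma adjusted p = 0.0286). At 28 dpi AY036118 (3.50), Rn18s-rs5 (2.86) and Lars2 (2.26) were also called on the log2 scale. Of all 16995 genes, 2 were called higher at 42 dpi, and these were Cdr1 and Mir6240.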

How the data were processed

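Total RNA was prepared from all animals together, depleted of ribosomal RNA with Ribo Zero Gold, made into libraries with a TruSeq kit that does not mark strand, and sequenced as single reads. The authors estimated transcript abundance with SALMON and Tximport and normalized with edgeR (per the labels edgeR 3.14.0, R 3.4.1, build mm10). The deposited score is a normalized CPM, rounded to 0.1, for 16995 genes that passed their filter; an animal's values summed to 714597 to 2256910, so it is not a fixed per-million scale, and depth is unknown. The deposited table also holds the authors' own fold changes and p-values, which were not used. Groups came from sample titles, and 1 labelled animal at 4 dpi had no column. The paper left 1 sample of the 4 dpi group out of its differential expression analysis as an outlier. It chose the sequenced animals from those operated by quality scores.

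Values were fitted as log2(value + 0.5) with limma 3.58.1 (R 4.3.3): 6 group means, eBayes with trend, Benjamini-Hochberg adjustment over all genes, called at an adjusted p under 0.05 and a fold above 1.5. Fold changes on this scale understate those of low genes. The fit was tested on simulated data. Relations used group-centred log2 values over 29 animals with 100000 permutations within groups (two-sided; numpy 2.4.6). The text names the 8 members, the 3 genes of mean value at least 1 most like each by Pearson's r, and of each fixed list the called genes, up to 4 by size. Members, lists and marker sets were chosen with earlier results of these data known; genes named beyond the rule (C230004F18Rik, Dlk1, Rtl1, Ago2, Sfpq, Cx3cr1, Snap25, Flt1, Hbb-bs, Hba-a1) were chosen after their values were seen, and 1 gene that the rule names is not reported here. Positions came from the deposited table, transcripts from GENCODE M21 and microRNAs from RefSeq. Alternatives covered the pseudocount, a mean filter, 4 other scalings, the trend, the groups fitted, the unit number as a random block, Rn18s-rs5 as a covariate, and each animal left out.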

Additional observations from a re-analysis of the deposited data

Results flagged for a closer look

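In 2 of 48 sets of a member in a group, 1 animal lay apart from the rest by Dixon's criterion, and chance alone gives about 1 in 20. Neat1 at 28 dpi read 552.1 in animal A3-3, against 232.4 to 269.3 in the others (gap over range 0.885, critical value 0.71). Neat1 at 14 dpi read 139.9 in animal A6-2, against 194.4 to 208.8 in the others (gap over range 0.791).

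In 8 cases the difference between 2 time points passed the test of that difference (limma). For Cdr1 the log2 difference was 1.47 for 28 against 4 dpi, 1.49 for 42 against 4 dpi, 1.14 for 28 against 7 dpi, 0.93 for 28 against 14 dpi and 0.95 for 42 against 14 dpi. For Neat1 it was 0.87 for 28 against 7 dpi, 0.61 for 28 against 14 dpi and -0.80 for 42 against 28 dpi. Without the 28 dpi animal A3-3, the Neat1 values were 0.63 against 7 dpi, still called, and 0.38 against 14 dpi, no longer called; without the 14 dpi animal A6-2 the latter was 0.50, also no longer called. The Neat1 difference of 42 and 28 dpi was -0.57 (limma adjusted p = 0.0867) without A3-3, and it also lost its call without A1-1, A1-2 or A1-4.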

How the results depend on the processing

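No paired analysis was possible because no groups share 2 replicate or unit numbers: each unit lies within 1 group, except unit 3, which holds animals of 28 and 42 dpi. With the unit number of the labels as a random block (correlation -0.04) every count of members called stayed within 1.5 times. With Rn18s-rs5 as a covariate, 0 members were called at 28 dpi and 0 at 42 dpi, in place of 2 and 1, and 4 between time points in place of 8, all of them among the 8. Among animals with Rn18s-rs5 under 100000, an alternative chosen after seeing the data, the counts were 0, 0 and 1. Rescaling each animal to the same sum over all genes gave 5 between time points, of which 1 (Cdr1, 28 against 4 dpi) was among the 8, and turned Neat1 at 28 dpi to -0.086 on the log2 scale (adjusted p = 0.770). That rescaling called 3 members at 28 dpi, Cdr1 higher and, with the median of all genes at -0.73, Rian and Mirg lower (Mirg was 0.08 above that median); the counts at 28 and 42 dpi were 2 and 1 under the remaining settings. Leaving out each animal gave 0 to 0 members at 4, 7 and 14 dpi, 1 to 2 at 28 dpi, 0 to 1 at 42 dpi and 6 to 9 between time points; Neat1 at 28 dpi was lost without A3-3 and Cdr1 at 42 dpi (adjusted p = 0.0577) without the sham animal A12-2. The r of Cdr1 with Rn18s-rs5 was 0.78 without the 2 farthest animals, in place of 0.85. The table calls 466 genes at 28 dpi with a pseudocount of 1, 964 with 0.05, 11086 after rescaling to the same sum, 0 with the covariate, 6 among animals under 100000 and 789 as reported; at 42 dpi it calls 43 genes when the pair of groups was fitted alone, 39 with the random block, 140 after rescaling to the same sum, 10 with the covariate and 4 as reported. Depth is unknown, so the precision of low values cannot be given.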
